A study of Mus musculus with 6 samples.

Results

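The genes described here are 9 markers of the mural cells of blood vessels, taken as a list of named genes from the 36144 gene symbols measured in mouse inguinal white adipose tissue (iWAT). Mural cells wrap the endothelial tube. Smooth muscle cells form contractile layers around arteries and veins, and pericytes sit singly along capillaries within the basement membrane. Smooth muscle cells are recognised by proteins of the contractile apparatus, whose genes are largely driven by serum response factor (SRF) with myocardin-type coactivators, whereas pericytes are recognised by signalling proteins, surface proteins and channel subunits that many smooth muscle cells also carry. In fat, mural cells control blood flow through the depot, and progenitors of adipocytes have been found among cells of the vessel wall. By role, *Acta2*, *Tagln*, *Myh11* and *Cnn1* are the 4 contractile genes, and *Rgs5*, *Cspg4*, *Notch3*, *Kcnj8* and *Abcc9* are the 5 genes used mainly for pericytes.

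The study hypothesized that *Cebpa*, the gene of an adipogenic transcription factor, acts in adipocytes on how white fat is distributed. To look further into possible adipocyte dysfunction, it sequenced iWAT RNA from 3 Cebpa_ASKO and 3 Cebpa_fl/fl mice, 1 library per mouse. All were female littermates on the C57BL6/J background at 10 weeks of age, randomly fed. By the sample labels the RNA came from both inguinal depots of a mouse with the lymph nodes taken out, whereas the study's methods describe a portion of the inguinal fat given by weight. Both groups carried floxed *Cebpa* alleles. Cebpa_ASKO mice (Cebpa_fl/fl; AdipoQ-Cre +) also carried Cre under the adiponectin promoter, so that the gene was lost in cells that express adiponectin and kept in other cells of the depot, and Cebpa_fl/fl mice (Cebpa_fl/fl; AdipoQ-Cre −) were the controls. Levels are given as TPM, a share of the library corrected for transcript length, and differences as log2 fold changes of Cebpa_ASKO over Cebpa_fl/fl from edgeR's quasi-likelihood test on summed estimated counts. A gene was called at a Benjamini-Hochberg adjusted p below 0.05 over all 16069 genes tested.

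The targeted gene matched the labels. *Cebpa* was at 204, 238 and 243 TPM in Cebpa_fl/fl and at 17.3, 23.9 and 20.1 TPM in Cebpa_ASKO. All 9 marker genes were measured well in every library, with between 455 and 13166 estimated counts per gene and library, and all 9 passed the filter on low counts.

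One marker, *Abcc9*, was called, and it was higher in Cebpa_ASKO. That is 1 of 9 markers called higher and 0 called lower, where 1.39% of all tested genes were called higher, 3.84% lower and 5.23% in either direction. The median log2 fold change of the 9 markers was 0.37, beside 0.02 over all genes tested, and 8 of the 9 had a positive value. Before adjustment 5 of the 9 had a p below 0.05, as did 19.8% of all tested genes. In TPM, *Acta2*, *Myh11*, *Cnn1* and *Abcc9* lay higher in each Cebpa_ASKO library than in any control, which is 4 of 9 where 14.8% of all tested genes lay higher in this way, and none of the 9 lay lower throughout, where 8.72% did. The same 4 genes lay higher throughout in TMM-normalized CPM, as did 12.9% of all tested genes, and none lay lower, as did 13.2%. In bulk tissue, fewer or more cells of a type and less or more RNA per cell cannot be told apart, and this holds for each level below.

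**Figure D1:**
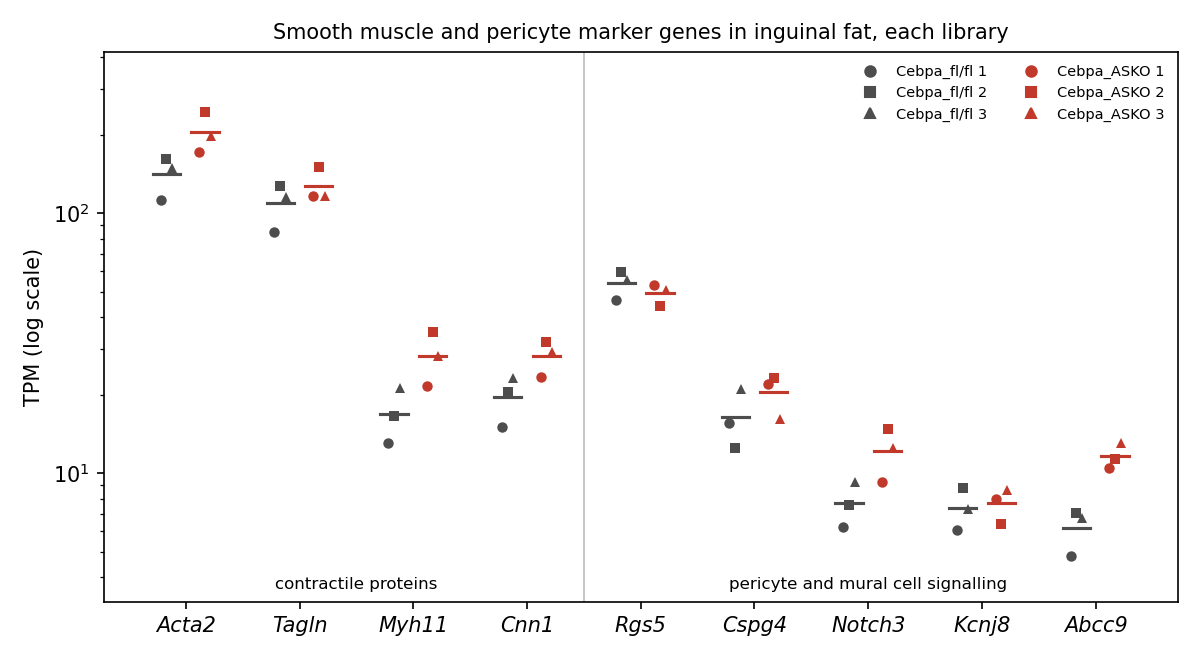
TPM of the 9 marker genes in each library on a log scale, with controls in grey, Cebpa_ASKO in red, a symbol for each replicate and a bar at each mean (n = 3). *Acta2*, *Myh11*, *Cnn1* and *Abcc9* do not overlap between the genotypes, and *Abcc9* alone was called.

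In the control libraries the order of the mean levels was *Acta2*, *Tagln*, *Rgs5*, *Cnn1*, *Myh11*, *Cspg4*, *Notch3*, *Kcnj8* and *Abcc9*, from 141 to 6.19 TPM. The libraries of *Acta2* and *Tagln* overlapped each other, as did those of *Cnn1*, *Myh11* and *Cspg4* in turn and those of *Notch3*, *Kcnj8* and *Abcc9* in turn. *Rgs5* stood apart from its neighbours on both sides. In Cebpa_ASKO, *Myh11* and *Cnn1* exchanged places with almost equal means, and *Abcc9* came before *Kcnj8*. Among all symbols, *Acta2* ranked at 633 and *Kcnj8* at 8889 by mean TPM over the 6 libraries.

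*Acta2* encodes smooth muscle actin, the thin-filament protein most used to stain arterial walls. Its TPM was 113, 162 and 149.6 in Cebpa_fl/fl and 172, 247 and 199 in Cebpa_ASKO. The lowest Cebpa_ASKO library was only slightly above the highest control, and Cebpa_ASKO 2 was the highest. The means were 141 ± 25.6 and 206 ± 38.0 TPM (SD, n = 3 each). On the log2 scale the fold change was 0.43 ± 0.147 (here and below, ± after a log2 value gives the standard error), and the gene was not called (adjusted p = 0.168, edgeR).

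*Tagln* encodes transgelin, an actin-binding protein that appears early as smooth muscle matures. It was at 84.9, 127 and 116 TPM in Cebpa_fl/fl and at 117, 151 and 116 TPM in Cebpa_ASKO. The genotypes overlapped, because 2 Cebpa_ASKO libraries lay among the controls. The log2 fold change was 0.21 ± 0.146 (edgeR, adjusted p = 0.508). On the opposite strand the end of *Tagln* overlaps *Pcsk7*, at 10.99 to 17.3 TPM, and reads from the shared stretch may be divided between them.

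*Myh11*, the smooth muscle myosin heavy chain, is the most restricted of the contractile markers. Its TPM was 13.1, 16.7 and 21.2 in Cebpa_fl/fl and 21.7, 34.8 and 28.3 in Cebpa_ASKO. The genotypes did not overlap, although Cebpa_ASKO 1 and Cebpa_fl/fl 3 were nearly level. The means were 17.0 ± 4.09 and 28.3 ± 6.55 TPM (SD, n = 3 each), with the largest log2 fold change of the contractile genes, 0.67 ± 0.191. It was not called by edgeR (adjusted p = 0.113) but was by DESeq2 (adjusted p = 0.0280).

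*Cnn1* encodes calponin, which binds actin and restrains the myosin ATPase. Its TPM was 15.1, 20.5 and 23.4 in Cebpa_fl/fl and 23.5, 32.0 and 29.2 in Cebpa_ASKO. The genotypes were apart by a hair, with Cebpa_ASKO 1 beside Cebpa_fl/fl 3. The log2 fold change was 0.37 ± 0.145 (edgeR, adjusted p = 0.216).

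Together the 4 contractile genes summed to 226, 326 and 310.2 TPM in Cebpa_fl/fl and to 334, 464 and 373 TPM in Cebpa_ASKO. Cebpa_ASKO 2 had the highest value of each of the 4, and Cebpa_fl/fl 1 the lowest. Leaving out either of those libraries brought the log2 fold change of *Tagln* down to 0.10.

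Transcripts of *Myh11* were looked at by the exons they use, since smooth muscle makes several forms of this myosin. The SM2 form carries an extra exon of 39 bases near the end of the coding sequence (chromosome 16 of GRCm38, from 14198050 to 14198088), and the SM1 form skips it. SM1 transcripts took 98.0%, 97.1% and 95.9% of the gene's TPM in Cebpa_fl/fl and 96.9%, 95.3% and 94.4% in Cebpa_ASKO. The SM2 transcript was at 0.182, 0.324 and 0.698 TPM in Cebpa_fl/fl and at 0.613, 1.04 and 1.29 TPM in Cebpa_ASKO, and the genotypes overlapped. A transcript with the 21-base exon of the myosin head, known as SM-B, was at 0.154 to 0.846 TPM over the 6 libraries. SM1 was thus the main form in both genotypes. Estimated counts divide reads among transcripts of a gene, and such shares are less certain than the gene's sum.

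*Rgs5* encodes a regulator of G-protein signalling that is the most abundant of the pericyte markers here. Its TPM was 46.4, 59.6 and 55.5 in Cebpa_fl/fl and 52.9, 44.0 and 50.8 in Cebpa_ASKO. The genotypes overlapped, and Cebpa_ASKO 2, the highest library for the contractile genes, was the lowest for *Rgs5*. The log2 fold change was -0.17 ± 0.136 (edgeR, adjusted p = 0.560), the only negative value among the 9, and it was -0.31 without Cebpa_ASKO 1 and -0.09 without Cebpa_ASKO 2.

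*Cspg4* encodes NG2, a membrane proteoglycan of pericytes. Its TPM was 15.7, 12.6 and 21.2 in Cebpa_fl/fl and 22.0, 23.3 and 16.2 in Cebpa_ASKO. The genotypes overlapped, with Cebpa_ASKO 3 close to the lowest controls and a log2 fold change of 0.30 ± 0.260 (edgeR, adjusted p = 0.603). That difference was 0.08 without Cebpa_fl/fl 2 and 0.56 without Cebpa_fl/fl 3. Between 58.8% and 69.2% of its TPM was assigned to Cspg4-204, an annotated transcript with a retained intron, and the coding transcript Cspg4-201 held 4.42, 3.40 and 7.35 TPM in Cebpa_fl/fl and 6.69, 7.74 and 5.81 TPM in Cebpa_ASKO. By this estimate the coding transcript was below the gene total in each library. Cspg4-204 is shorter, at 3267 against 8121 bases. In estimated counts Cspg4-201 was the higher of the 2 in each library, at 1022 to 2311.5 against 1002.5 to 1572.9. How reads are divided between these transcripts is less certain than the gene's sum.

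*Notch3*, the Notch receptor of arterial smooth muscle and pericytes, was at 6.24, 7.57 and 9.23 TPM in Cebpa_fl/fl and at 9.23, 14.9 and 12.5 TPM in Cebpa_ASKO. Cebpa_ASKO 1 was level with Cebpa_fl/fl 3, and the other Cebpa_ASKO libraries were above every control. The log2 fold change was 0.51 ± 0.182 (edgeR, adjusted p = 0.187).

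*Abcc9* and *Kcnj8* encode the subunits of the vascular ATP-sensitive potassium (KATP) channel, in which *Kcnj8* makes the pore and *Abcc9* the sulfonylurea receptor that gates it. When it opens, the cell hyperpolarises and the vessel relaxes. The genes are neighbours on chromosome 6 of GRCm38, *Kcnj8* from 142564837 to 142571614 and *Abcc9* from 142587862 to 142702315, both on the minus strand and 16247 bases apart.

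*Abcc9* was at 4.79, 7.07 and 6.70 TPM in Cebpa_fl/fl and at 10.5, 11.4 and 13.1 TPM in Cebpa_ASKO. Every Cebpa_ASKO library was well above every control (p = 0.1 in an exact permutation test, as small as 20 arrangements of the libraries can give). The mean rose 1.88-fold in TPM, from 6.19 ± 1.22 to 11.7 ± 1.33 (SD, n = 3 each), and the log2 fold change was 0.84 ± 0.124 (edgeR, adjusted p = 0.0140). It was called in 13 of the 17 fits, counting the one reported, and its log2 fold change lay between 0.72 and 0.92 in the alternatives. The edgeR call did not hold when Cebpa_ASKO 1 (adjusted p = 0.0726) or Cebpa_ASKO 2 (adjusted p = 0.0556) was left out, although the log2 fold changes were then 0.84 and 0.86.

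*Kcnj8* was at 6.07, 8.75 and 7.28 TPM in Cebpa_fl/fl and at 7.99, 6.38 and 8.66 TPM in Cebpa_ASKO. The genotypes were interleaved, and no library stood out. The log2 fold change was 0.01 ± 0.155 (edgeR, adjusted p = 0.978), with either sign over the alternatives, between -0.07 and 0.12. The ratio of *Abcc9* to *Kcnj8* TPM was 0.790, 0.808 and 0.920 in Cebpa_fl/fl and 1.31, 1.78 and 1.51 in Cebpa_ASKO, without overlap. The difference between the 2 genes' changes was not tested.

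Other tissues use a different pair of subunits. *Kcnj11*, the pore subunit of beta cells and striated muscle, was at 1.48, 1.12 and 2.66 TPM in Cebpa_fl/fl and at 1.59, 2.64 and 1.16 TPM in Cebpa_ASKO. *Abcc8*, the receptor subunit of beta cells, was at 4.01, 2.01 and 6.20 TPM in Cebpa_fl/fl and at 1.51, 2.24 and 1.80 TPM in Cebpa_ASKO. Both genes overlapped between the genotypes and were not called, with log2 fold changes of -0.13 (adjusted p = 0.907, edgeR) and -1.18 (adjusted p = 0.204, edgeR).

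*Abcc9* makes 2 main receptor forms that differ in the last coding exon, SUR2A of heart and skeletal muscle and SUR2B of vascular smooth muscle. The annotation does not name the forms, and its transcripts were assigned here from that known exon choice. Those taken as SUR2A end their coding sequence in an exon of 176 bases (from 142593967 to 142594142) that the transcript taken as SUR2B skips. The 2 ends are shown because reads over them decide which form a transcript estimate follows. Each is the last coding stretch of 135 bases before the stop codon, taken from the GENCODE M21 transcripts of GRCm38 on the minus strand, at chr6:142594008-142594142 for SUR2A and at chr6:142590369-142590503 for SUR2B, and capitals mark the 66 positions at which the 2 differ.
SUR2A end: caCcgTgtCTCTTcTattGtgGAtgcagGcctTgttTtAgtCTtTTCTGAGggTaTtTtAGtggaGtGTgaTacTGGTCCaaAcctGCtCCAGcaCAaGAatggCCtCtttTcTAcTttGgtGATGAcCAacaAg
SUR2B end: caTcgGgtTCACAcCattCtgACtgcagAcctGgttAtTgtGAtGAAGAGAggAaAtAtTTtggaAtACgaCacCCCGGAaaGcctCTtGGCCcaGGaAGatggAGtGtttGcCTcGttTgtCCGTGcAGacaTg

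The SUR2B transcript, Abcc9-203, was at 3.94, 5.63 and 5.67 TPM in Cebpa_fl/fl and at 9.41, 7.95 and 11.5 TPM in Cebpa_ASKO. It was the main form in every library, with 70.0% to 89.7% of the gene's TPM, and the genotypes did not overlap. The SUR2A transcripts summed to 0.797, 1.38 and 0.973 TPM in Cebpa_fl/fl and to 0.784, 3.10 and 1.21 TPM in Cebpa_ASKO. Cebpa_ASKO 2 stood above the rest in SUR2A, and the other Cebpa_ASKO libraries lay among or near the controls. The higher *Abcc9* of Cebpa_ASKO was carried mostly by the SUR2B transcript, with mean TPM of 5.08 ± 0.988 and 9.62 ± 1.78 (SD, n = 3 each) against 1.05 ± 0.299 and 1.70 ± 1.23 for SUR2A.

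**Figure D2:**
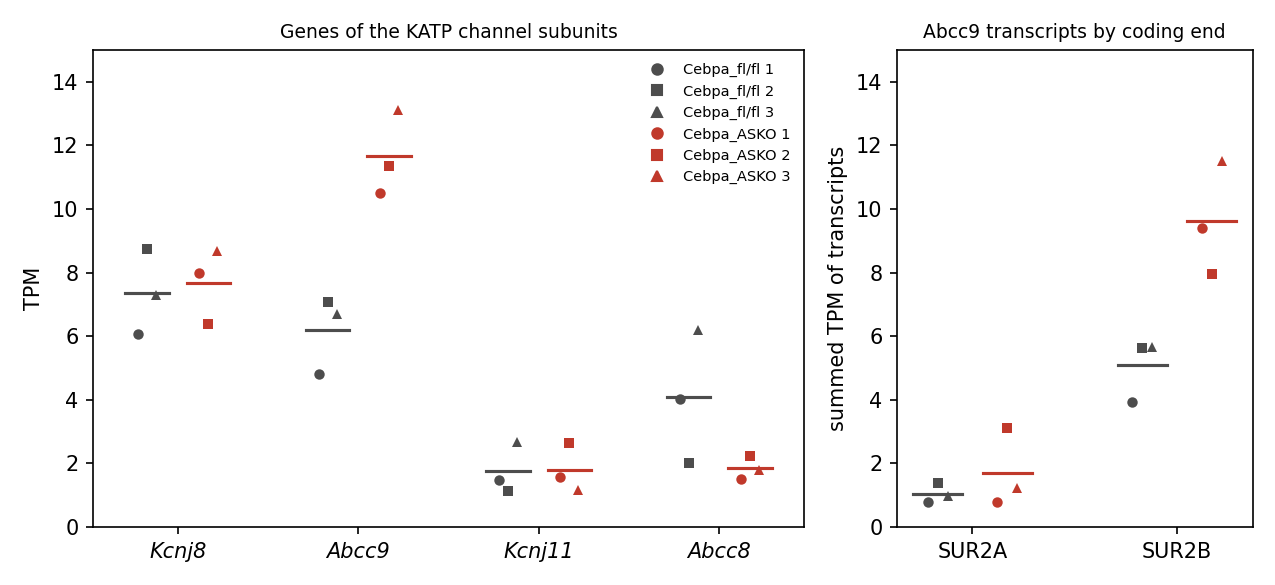
Left, TPM of the 4 KATP channel subunit genes in each library. Right, summed TPM of the *Abcc9* transcripts by their coding end, with a bar at each mean (n = 3 per genotype) and symbols as in the key. *Abcc9* and its SUR2B form do not overlap between the genotypes, and *Kcnj8* does.

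Over the 6 libraries the 4 contractile genes varied together. Pearson's r of log2 CPM was between 0.68 and 0.97 over their 6 pairs, with a median of 0.90. The 5 pericyte markers did not share a pattern, with r from -0.57 to 0.81 and a median of 0.00 over their 10 pairs. *Notch3* followed *Myh11* (r = 0.98), and *Abcc9* followed *Acta2* and *Myh11* (r = 0.86 each), while *Rgs5* paired best with *Kcnj8* (r = 0.70). These correlations describe 6 libraries in 2 genotypes, so the genotype difference itself is part of each r.

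Among 12515 tested genes whose mean log2 CPM was 1 or more, those most like the mean profile of the contractile genes over the 6 libraries were *Exd2* and *Nexn* (r = 0.995 each), then *Nbea* and *Rab4a* (r = 0.994 each). *Nexn*, which encodes nexilin, an actin-binding protein of muscle, was at 3.14, 5.08 and 6.83 TPM in Cebpa_fl/fl and at 6.06, 12.2 and 7.52 TPM in Cebpa_ASKO. Cebpa_ASKO 1 lay below Cebpa_fl/fl 3, so the genotypes overlapped. The genes most like the mean profile of the 5 pericyte markers were *Lgals3* (r = 0.970), *Nif3l1* (r = 0.962), *Rnf144b* (r = 0.956), *Arf4* and *R3hdm4* (r = 0.951 each). *Lgals3*, the galectin-3 gene, was at 91.5, 124 and 135 TPM in Cebpa_fl/fl and at 172, 159 and 174 TPM in Cebpa_ASKO. None of these 9 genes was called. The 5 pericyte markers did not share a pattern, so their mean profile need not follow any single marker. Among 12515 genes compared over 6 libraries, values of r this high can arise by chance, and this was not tested.

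A wider list held 22 further contractile genes of smooth muscle. Of the 22, 4 were called higher (1.39% of all tested genes) and 0 lower (3.84%), 17 had a positive log2 fold change, and the median was 0.35, beside 0.02 over all genes. In TPM, 9 lay higher in every Cebpa_ASKO library (14.8% of all genes) and 0 lay lower (8.72%), and in CPM 10 lay higher (12.9%) and 1 lower (13.2%). The 4 called genes were *Tpm1* and *Tpm2*, which encode tropomyosins of the thin filament, *Synm*, an intermediate filament protein, and *Pdlim7*, an adaptor of the actin cytoskeleton. *Tpm1* had the largest log2 fold change, 1.41 ± 0.222 (edgeR, adjusted p = 0.0171), at 123, 149 and 136 TPM in Cebpa_fl/fl and 380.4, 605 and 303 TPM in Cebpa_ASKO.

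Transcripts shared the rise of *Tpm1* unevenly. Tpm1-205 was at 32.4, 48.9 and 32.9 TPM in Cebpa_fl/fl and at 224, 424 and 141 TPM in Cebpa_ASKO, and the other 20 transcripts of the gene together were at 90.1, 100.3 and 103 TPM in Cebpa_fl/fl and at 156, 182 and 162 TPM in Cebpa_ASKO. Neither overlapped between the genotypes, and Tpm1-205 changed from the smaller to the larger share of the gene in Cebpa_ASKO 1 and 2. *Tpm2* was at 57.2, 76.4 and 79.4 TPM in Cebpa_fl/fl and at 135, 253 and 134 TPM in Cebpa_ASKO (log2 fold change 1.38, adjusted p = 0.0408, edgeR). *Synm* and *Pdlim7* had log2 fold changes of 1.06 (adjusted p = 0.0351) and 0.46 (adjusted p = 0.0423) from edgeR, and neither overlapped between the genotypes. *Tpm1*, *Tpm2* and *Synm* are also made in skeletal muscle. Over the 17 fits *Tpm1* was called in 12, *Tpm2* in 11, *Synm* in 9 and *Pdlim7* in 4. Each of the 4 genes lost its call without Cebpa_fl/fl 1, without Cebpa_fl/fl 3 and without Cebpa_ASKO 1, *Tpm2* and *Synm* also without Cebpa_fl/fl 2, and *Pdlim7* also without Cebpa_ASKO 2 or 3. With 1 library left out, the log2 fold changes ran from 1.15 to 1.60 for *Tpm1*, 0.99 to 1.56 for *Tpm2*, 0.79 to 1.18 for *Synm* and 0.39 to 0.52 for *Pdlim7*.

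At the low end of the same list, *Pln*, which encodes phospholamban, the brake on the calcium pump of the sarcoplasmic reticulum, was at 0.871, 1.31 and 1.22 TPM in Cebpa_fl/fl and at 0.530, 0.942 and 0.750 TPM in Cebpa_ASKO. The genotypes overlapped in TPM, and its log2 fold change of -0.84 was not called (adjusted p = 0.167, edgeR). The next lowest were *Myl6* and *Cald1*, both at -0.10 and not called. *Myl6*, a myosin light chain of many cell types, was the most abundant gene of the list, at 1446 to 1691 TPM.

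Another list held 22 further pericyte genes. Of these, 0 were called higher (1.39% of all tested genes) and 4 were called lower (3.84%). Negative log2 fold changes were found for 14, and the median stood at -0.23, beside 0.02 over all genes. In TPM, 8 lay lower in every Cebpa_ASKO library (8.72% of all genes) and 1 lay higher (14.8%), and in CPM 10 lay lower (13.2%) and 2 higher (12.9%). The difference between the contractile and the pericyte lists was not tested. The called genes were *Mcam*, *Lamc3*, *Cox4i2* and *Vtn*.

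*Mcam* encodes CD146, an adhesion protein of pericytes that endothelial cells also carry. It was at 82.8, 125 and 102 TPM in Cebpa_fl/fl and at 27.6, 23.2 and 32.3 TPM in Cebpa_ASKO. The Cebpa_ASKO libraries lay far below all controls and close to each other. The log2 fold change was -1.96 ± 0.177 (edgeR, adjusted p = 0.00223), and *Mcam* was called in all 17 fits.

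*Lamc3*, a laminin chain of the vascular basement membrane, was at 4.99, 5.17 and 6.51 TPM in Cebpa_fl/fl and at 1.76, 2.27 and 3.18 TPM in Cebpa_ASKO. *Cox4i2*, a respiratory chain subunit of pericytes, was at 7.39, 6.58 and 8.40 TPM in Cebpa_fl/fl and at 3.18, 3.30 and 3.98 TPM in Cebpa_ASKO. *Vtn*, the vitronectin gene, was at 9.67, 10.2 and 11.9 TPM in Cebpa_fl/fl and at 6.75, 5.45 and 7.18 TPM in Cebpa_ASKO. None of the 3 overlapped between the genotypes, and the log2 fold changes were -1.29 (adjusted p = 0.0127), -1.16 (adjusted p = 0.0299) and -0.88 (adjusted p = 0.0371), all from edgeR. *Lamc3* was called in 14 of the 17 fits, *Cox4i2* in 10 and *Vtn* in 6. With 1 library left out, *Lamc3* lost its call without Cebpa_ASKO 1 or 2, *Cox4i2* without any library but Cebpa_fl/fl 2, and *Vtn* without any of the 6. The log2 fold changes then ran from -1.50 to -1.17 for *Lamc3*, from -1.29 to -1.08 for *Cox4i2* and from -0.98 to -0.75 for *Vtn*.

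*Higd1b* and *Rgs4*, further pericyte genes, also lay lower in every Cebpa_ASKO library but were not called (adjusted p = 0.0508 and 0.0674, edgeR). DESeq2 called both, *Higd1b* was also called with DESeq2's size factors in edgeR, with the filter at 10 counts and with limma on log2(TPM + 0.1), and *Rgs4* without Cebpa_ASKO 3. *Pdgfrb*, the receptor that recruits pericytes to vessels, was at 13.7, 20.9 and 16.2 TPM in Cebpa_fl/fl and at 12.1, 14.5 and 20.8 TPM in Cebpa_ASKO, and the genotypes overlapped (log2 fold change -0.17, adjusted p = 0.696, edgeR). The most positive values of the list were those of *Trpc6*, *P2ry14* and *Ano1*, at 0.78, 0.67 and 0.66, and none was called. *Trpc6*, a cation channel, varied among the controls at 4.63, 0.970 and 8.34 TPM, against 9.97, 9.50 and 5.43 TPM in Cebpa_ASKO. The most abundant gene of the list was *Steap4*, a metal reductase, with a log2 fold change of 0.00.

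**Figure D3:**
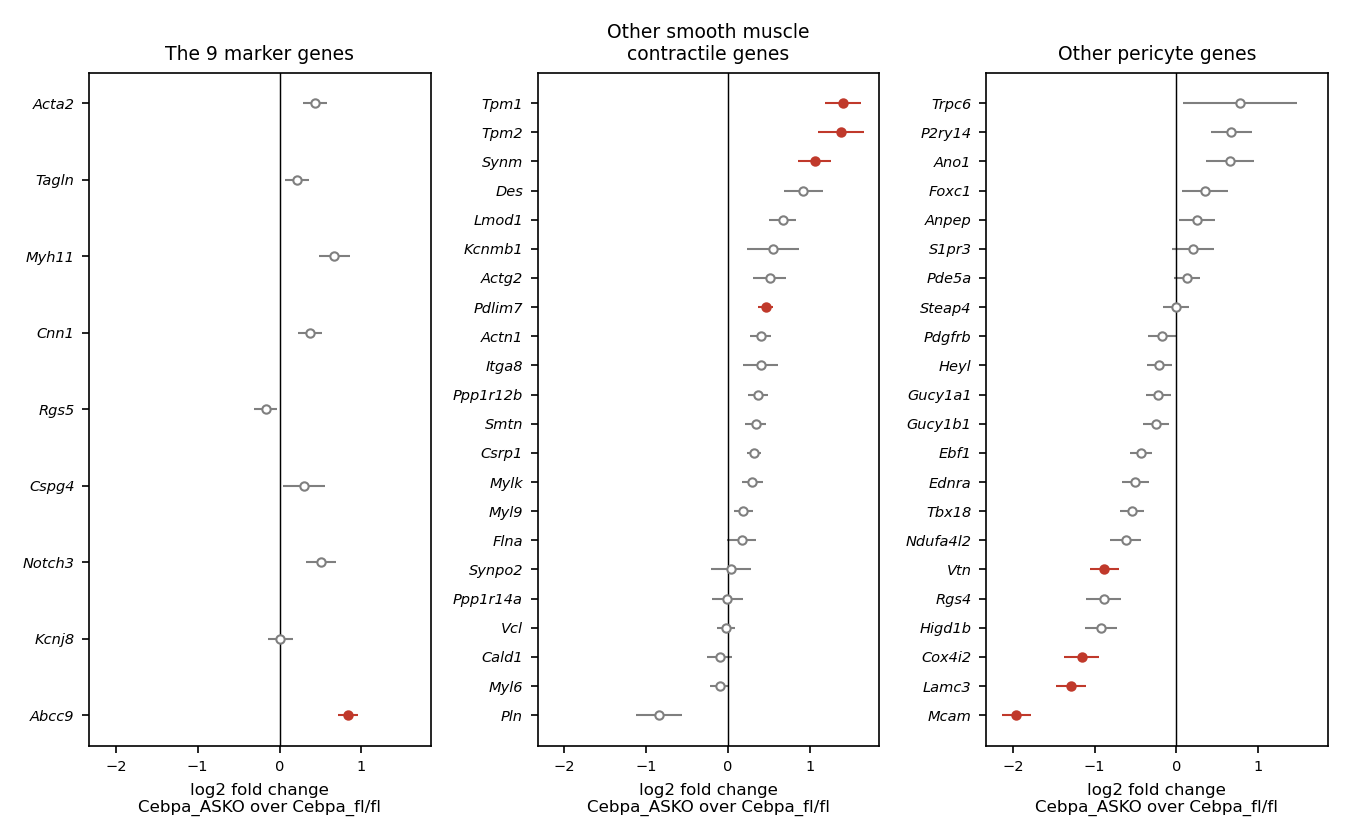
Log2 fold changes of Cebpa_ASKO over Cebpa_fl/fl with standard errors from edgeR for the 9 marker genes, 22 further contractile genes and 22 further pericyte genes (n = 3 per genotype). Filled red points were called, which is 1 marker, 4 contractile genes, all higher, and 4 pericyte genes, all lower.

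*Acta2* was also set among the 6 actin genes, whose coding sequences are so alike that estimated counts may divide reads between them. The skeletal actin *Acta1* was at 76.5, 119 and 101 TPM in Cebpa_fl/fl and at 354, 844 and 308 TPM in Cebpa_ASKO, and was called higher (log2 fold change 2.29, adjusted p = 0.0245, edgeR). The cardiac actin *Actc1*, at 0.102 to 0.254 TPM in Cebpa_fl/fl and 2.05 to 3.49 TPM in Cebpa_ASKO, was called higher as well (log2 fold change 3.77, adjusted p = 0.00469, edgeR). The enteric smooth muscle actin *Actg2* was at 6.84, 8.04 and 8.68 TPM in Cebpa_fl/fl and at 9.73, 15.6 and 9.48 TPM in Cebpa_ASKO, without overlap and without a call (adjusted p = 0.225, edgeR). The cytoplasmic actins *Actb* and *Actg1* overlapped between the genotypes, with log2 fold changes of 0.12 and 0.22. In Cebpa_ASKO the skeletal actin thus exceeded *Acta2* in every library, whereas in every control library it was below *Acta2*.

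Genes that act on the markers were read from 3 lists, beside the 5.23% of all tested genes that were called. Of 9 genes of SRF and its partners, 8 were tested and 0 were called, with a median log2 fold change of 0.06. *Klf4*, a repressor of the contractile program, was the most abundant of them at 20.6 to 43.7 TPM. *Elk1*, an SRF partner, lay lower in every Cebpa_ASKO library without a call (log2 fold change -0.49, adjusted p = 0.0524, edgeR). It was the only 1 of the 8 to do so in TPM (8.72% of all genes) or CPM (13.2%). In the other direction, 0 lay higher throughout in TPM (14.8%) and 1 in CPM (12.9%). *Myocd*, the smooth muscle coactivator myocardin, was too low to be tested, at 0 to 0.0319 TPM in Cebpa_fl/fl and 0.0666 to 0.138 TPM in Cebpa_ASKO, with no more than 13 counts in a library. Of 15 genes of the Notch pathway, which holds the ligands and targets of *Notch3*, 0 were called, and the median was -0.09. Of 14 genes for signals between endothelium and mural cells, 0 were called, 11 had a negative log2 fold change, and the median was -0.17. In every Cebpa_ASKO library 2 of the 14 lay lower in TPM (8.72% of all genes) and 6 in CPM (13.2%), while 1 lay higher in TPM (14.8%) and 1 in CPM (12.9%). The CArG box, the DNA element of SRF and its own reverse complement, was searched for in RefSeq promoter windows of 300 bases (GRCm38.p6). It was present in 1.63% of all 32851 windows, in 0 of 7 windows of the markers, in 3 of 25 windows of the further contractile genes (*Myl6*, *Myl9* and *Vcl*) and in 1 of 21 windows of the further pericyte genes (*Trpc6*). The 7 marker windows were those of *Acta2*, *Cnn1* and the 5 pericyte markers. Beside a share of 1.63%, 7 windows are too few to tell the markers from all promoters. The windows covered 21 of the 22 contractile and 16 of the 22 pericyte genes. *Tagln*, *Myh11*, *Actg2*, *Pdgfrb*, *Higd1b*, *Ndufa4l2*, *Cox4i2*, *Heyl* and *Lamc3* had no entry.

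Markers of other cell types were read beside these genes. Endothelial cells lie next to mural cells, and their 12 markers summed to 267, 310.3 and 327 TPM in Cebpa_fl/fl and to 205, 196 and 288 TPM in Cebpa_ASKO. The sums overlapped, and 2 of the 12 were called (3.84% of all tested genes were called lower), *Emcn* and *Cldn5*, both lower, with log2 fold changes of -0.60 (adjusted p = 0.0440) and -1.10 (adjusted p = 0.0472) from edgeR. Of the 12, 11 had a negative log2 fold change, with a median of -0.40. In every Cebpa_ASKO library 3 lay lower in TPM (8.72% of all genes) and 6 in CPM (13.2%), and 0 lay higher in TPM (14.8%) or CPM (12.9%). The most abundant was *Egfl7*, at 43.0 to 80.2 TPM. Per endothelial TPM, the 4 contractile genes stood at 0.846, 1.05 and 0.950 in Cebpa_fl/fl and at 1.63, 2.37 and 1.29 in Cebpa_ASKO. The 5 pericyte markers stood at 0.297, 0.308 and 0.306 in Cebpa_fl/fl and at 0.501, 0.509 and 0.351 in Cebpa_ASKO. Both ratios were higher in every Cebpa_ASKO library, and the lower endothelial sums are part of them.

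Skeletal muscle shares many contractile genes with smooth muscle. Its 12 markers summed to 516, 861 and 578 TPM in Cebpa_fl/fl and to 2359.7, 5218.5 and 1895 TPM in Cebpa_ASKO, and 10 of the 12 were called higher, beside 1.39% of all tested genes (*Acta1*, *Ckm*, *Myh4*, *Tnnt3*, *Tnni2*, *Tnnc2*, *Mylpf*, *Actn3*, *Pvalb* and *Atp2a1*). The most abundant by the mean of all 6 libraries was *Ckm*, muscle creatine kinase, at 77.2, 124 and 71.9 TPM in Cebpa_fl/fl and 383, 851 and 305 TPM in Cebpa_ASKO. In the controls the means of *Tnnt3* and *Acta1* were above that of *Ckm*, at 100.2, 98.8 and 90.9 TPM. None of the 12 was at 0 throughout, and *Myh1* and *Myh2* overlapped between the genotypes. Cebpa_ASKO 2, the highest library for the skeletal muscle sum, was also the highest for the contractile markers, for SUR2A and for *Tpm1* and *Tpm2*. Whether skeletal muscle RNA has a part in these values was not tested.

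Myoepithelial cells of the mammary gland, which lies within the inguinal depot, also make *Acta2*, *Tagln*, *Myh11* and *Cnn1*. The 6 myoepithelial and basal keratinocyte markers summed to 114, 127 and 150.6 TPM in Cebpa_fl/fl and to 110.6, 154 and 96.8 TPM in Cebpa_ASKO, with overlap. Of the 6, 0 were called, beside 5.23% of all tested genes. The sum held genes with opposite signs, 4 positive and 2 negative. In every Cebpa_ASKO library 1 of the 6 lay lower in TPM (8.72% of all genes), *Oxtr*, and 2 in CPM (13.2%), *Oxtr* and *Trp63*. In the other direction, 0 lay higher in TPM (14.8%) or CPM (12.9%). *Trp63* had a log2 fold change of -0.48 and was not called (adjusted p = 0.211, edgeR). *Oxtr*, the oxytocin receptor gene, was at 47.4, 22.3 and 69.8 TPM in Cebpa_fl/fl and at 12.9 to 19.6 TPM in Cebpa_ASKO, lower in each Cebpa_ASKO library but not called (log2 fold change -1.71, adjusted p = 0.0730, edgeR), while the log2 fold change of *Krt5* was 0.51 (adjusted p = 0.212, edgeR). *Oxtr* had the highest mean in the controls. The most abundant by the mean of all 6 libraries was *Krt14*, at 28.2, 45.8 and 36.1 TPM in Cebpa_fl/fl and 42.0, 51.1 and 33.4 TPM in Cebpa_ASKO. The 10 luminal markers summed to 1105, 728 and 1748 TPM in Cebpa_fl/fl and to 2224, 2417 and 2566 TPM in Cebpa_ASKO, all higher in Cebpa_ASKO, with *Krt19* the most abundant at 243 to 613 and 727 to 867 TPM. Of the 9 tested, 0 were called, beside 5.23% of all tested genes, and the median log2 fold change was 0.78. In every Cebpa_ASKO library 7 lay higher in TPM (14.8% of all genes) and 6 in CPM (12.9%), and 0 lay lower in either. *Wap*, a milk protein gene, had fewer than 3 counts in each library. The part of mammary cells in the marker values was not tested.

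The other lists were as follows. The 10 adipocyte markers summed to 21318, 27159 and 22064 TPM in Cebpa_fl/fl and to 11535, 10397 and 9785 TPM in Cebpa_ASKO. *Fabp4* was the most abundant, and 6 of the 10 were called lower, beside 3.84% of all tested genes (*Adipoq*, *Plin1*, *Plin4*, *Cidec*, *Retn* and *Lpl*). A lower share of adipocyte RNA raises the share of other RNA in a library, and its part in the marker values was not tested. The 12 fibroblast and progenitor markers, led by *Dcn*, were at 4589 ± 1977 and 5486 ± 931 TPM in sum (SD, n = 3 each), and the 6 macrophage markers, led by *Lyz2*, at 1327 ± 744 and 1432 ± 314 TPM. In either list 0 were called, beside 5.23% of all tested genes. Per fibroblast TPM, the contractile genes overlapped between the genotypes, at 0.0475 to 0.0895 in Cebpa_fl/fl and 0.0570 to 0.0903 in Cebpa_ASKO. The pericyte markers overlapped as well, with a lower mean in Cebpa_ASKO (0.0219 ± 0.00753 and 0.0188 ± 0.00304, SD, n = 3 each). Of the 6 Schwann cell markers, led by *Mbp* at 28.6 to 54.2 TPM, 1 was called, *Ncmap*, which was higher, beside 1.39% of all tested genes. Skin keratinocyte markers were near 0 in part, with 2 of 6 tested, 0 called, *Flg* under 3 counts in each library and a sum of 6.50 to 18.7 TPM, led by *Krt10*.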

How the data were processed

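RNA-seq of iWAT from 3 Cebpa_ASKO and 3 Cebpa_fl/fl mice was analysed, with 33141769 to 49477671 estimated counts per library. Per the labels and the submitters' processing notes, the authors enriched poly-A RNA, made TruSeq libraries in 1 batch, and ran kallisto 0.44.0, with GRCm38.p6 and GRCh38.p12 named among the builds. The authors deposited estimated counts and TPM for each transcript, and TPM for each gene symbol. The annotation and strand-specific counting were not given in the sources used here.

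Estimated counts were summed per symbol with GENCODE M21 (116816 of 118489 transcripts matched) and rounded, and the summed TPM of all 9 markers was checked to lie within 0.1% of the authors' values. The main test was the quasi-likelihood test of edgeR 4.0.16 with TMM scaling and filterByExpr, in R 4.3.3 with DESeq2 1.42.0 and limma 3.58.1 for alternatives. Tables were made in Python 3.11.15 with scipy 1.17.1 and pandas 2.3.3. The alternatives were DESeq2, other scalings, filters and a length offset, limma on log2(TPM + 1) and log2(TPM + 0.1), the replicate number as a block, and each library left out. The fits were tested on simulated data. Replicates differed by far more than sampling noise (26.9 to 239 chi-square units per degree of freedom), and p-values rest on the spread among 3 mice per genotype.

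The markers and gene lists were chosen with earlier results of these data known. Named genes were the markers, called genes of other lists, the 3 largest and 3 smallest log2 fold changes of the 2 wider mural lists, the most abundant marker of each cell type, markers near 0, all actin and KATP genes, and the 5 genes most like each profile (Pearson r with the mean of standardized log2 CPM of the contractile or pericyte markers, predicted genes and Rik clones left out). One gene among these is not reported here. *Higd1b*, *Rgs4*, *Pdgfrb*, *Steap4*, *Klf4*, *Elk1*, *Anpep*, *Myocd*, *Oxtr*, *Krt5*, *Trp63*, *Myh1*, *Myh2*, the genes with a CArG box or no promoter entry and the transcripts of *Tpm1* were named after their values were seen.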

Additional observations from a re-analysis of the deposited data

How the results depend on the processing

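Over 16 alternatives, 132 of 144 log2 fold changes of the 9 markers kept both their direction and their side of the threshold. *Abcc9* lost its call in 4 and *Myh11* gained one in 1. *Kcnj8*, near 0 throughout, changed sign in 7, at -0.0016 with DESeq2, -0.0013 with DESeq2's size factors in edgeR and -0.0037 on genes with 10 counts in every library, and lay between -0.07 and 0.12 without 1 library. The markers' median lay between 0.25 and 0.53, with the highest value in limma on log2(TPM + 0.1). The count of genes called was 840 (223 higher), against 1796 (665 higher) with DESeq2, 359 (74 higher) with limma on log2(TPM + 1) without a filter, and 311 to 922 (33 to 264 higher) without 1 library, fewest without Cebpa_ASKO 1. The members called numbered 1, against 2 with DESeq2, 0 with limma without a filter, and 0 to 1 without 1 library. Among further contractile genes 4 were called, against 7 with DESeq2, 2 with limma at either added constant, 0 with limma without a filter, and 0 to 3 without 1 library. Among further pericyte genes 4 were called, against 8 with DESeq2, 1 with limma without a filter, and 1 to 4 without 1 library. The 4 without Cebpa_fl/fl 2 were *Anpep*, higher, and *Mcam*, *Cox4i2* and *Lamc3*, lower. Fewer libraries, or more genes tested, are part of these settings, and the cause was otherwise not tested. With the replicate number as a replicate block, 370 genes, 0 members, 0 further contractile genes and 2 further pericyte genes were called, with an adjusted p of 0.0538 for *Abcc9*. Deviations of same-numbered libraries correlated at 0.066, 0.028 and -0.201, and those of differently numbered libraries at -0.179 to 0.152. With 3 libraries per genotype, these values cannot tell whether the numbers pair the mice. With 3 libraries per genotype, a difference the size of that of *Tagln* could not be told from the spread.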
